A study of Rattus norvegicus with 6 samples.

Results

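Amino acids enter and leave hepatocytes through membrane carriers, and 10 of them were followed here in the liver of rats given TBBC. They were chosen by name: Slc7a5, Slc3a2, Slc7a2, Slc7a11, Slc1a4, Slc1a5, Slc38a2, Slc38a3, Slc38a4 and Slc43a1. A probe belonged to a carrier when the RefSeq accession that the array gives for it is listed under that gene. This gave 16 probes of the 61537 on the array that are not controls, with at least 1 probe for each of the 10 genes, and 14 of the 16 were bright enough to be tested. The array measured 15639 named genes in all. RNA came from the liver of 6 male Sprague-Dawley rats (Crl:CD(SD)), bought at 5 weeks of age, with 1 array for each animal. Vehicle animals (n = 3) were given corn oil. Treated animals (n = 3) were given TBBC, a thiobis compound of tert-butyl-m-cresol, at 300 mg/kg/day. The labels differ on the time, since the series text gives 28 days and the treatment text gives 9 weeks. All 8 hepatocyte markers looked for, among them the albumin gene Alb, were well above background on all 6 arrays. Of these 8, 0 passed the test described next, their median difference was -0.28, and their summed signal was 4480 to 5094 times the 75th percentile of the array in vehicle and 3968 to 4094 in TBBC animals.

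System L carriers exchange large neutral amino acids such as leucine. The light chain LAT1, encoded by Slc7a5, and the cystine and glutamate exchanger xCT, encoded by Slc7a11, each work only when joined to the heavy chain 4F2hc, encoded by Slc3a2. Leucine that enters through LAT1 feeds the kinase complex mTORC1, and lack of amino acids raises several carrier genes through the transcription factor ATF4. In resting adult liver LAT1 is scarce, and much of the uptake runs through the system A and system N carriers of the Slc38 family.

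Levels are given as log2 of the spot's processed signal relative to the 75th percentile of its array, so that 0 is the brightness of that percentile. A difference is TBBC minus vehicle on this log2 scale, with the standard error from limma and a p-value adjusted by Benjamini-Hochberg over all 29332 features tested. A feature is a named gene or a probe with no gene name here. The calls are made at an adjusted p under 0.05. Over all features 902 changed, which is 3.08%: 492 rose and 410 fell. With median centring the split was 746 to 306 and with scaling on spike-in controls 598 to 143; spike-in scaling moved the median difference of all features from -0.06 to 0.15, and values under it are read against that shift. The 75th percentile of the processed signal lay between 465.2 and 638.2, and 36919 to 39386 probes an array were well above background. With 3 arrays a group, that number sets the precision of every value. The vehicle arrays lay on 1 slide and in 1 scan and the TBBC arrays on another slide and in another scan, so that slide, scan and treatment cannot be told apart.

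Of the 10 carriers, 1 rose with TBBC, 0 fell and 9 did not pass the test. Over all features, 3.08% passed, 1.68% as higher and 1.4% as lower. The riser was Slc7a5, whose spots were well above background on 3 of 3 TBBC arrays and 0 of 3 vehicle arrays. It entered the test only through the group in which it was high, so the count of 1 is a description. Slc1a4 lay lower but did not pass, and 1 of its 3 TBBC spots was well above background, while Slc38a3 and Slc38a4, carriers known to be abundant in hepatocytes, differed by -0.13 and 0.02. The median difference of the 10 was -0.11, beside -0.06 for all features, and 4 of the 10 differences were positive, beside 42.4% of all features. In 3 carriers the vehicle and TBBC arrays did not overlap, Slc7a5 and Slc7a2 with higher and Slc1a4 with lower values under TBBC. Over all features, 31.1% did not overlap, 12.3% with higher and 18.8% with lower values under TBBC, so that a count of 3 in 10 lies near the background.

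**Figure D1:**
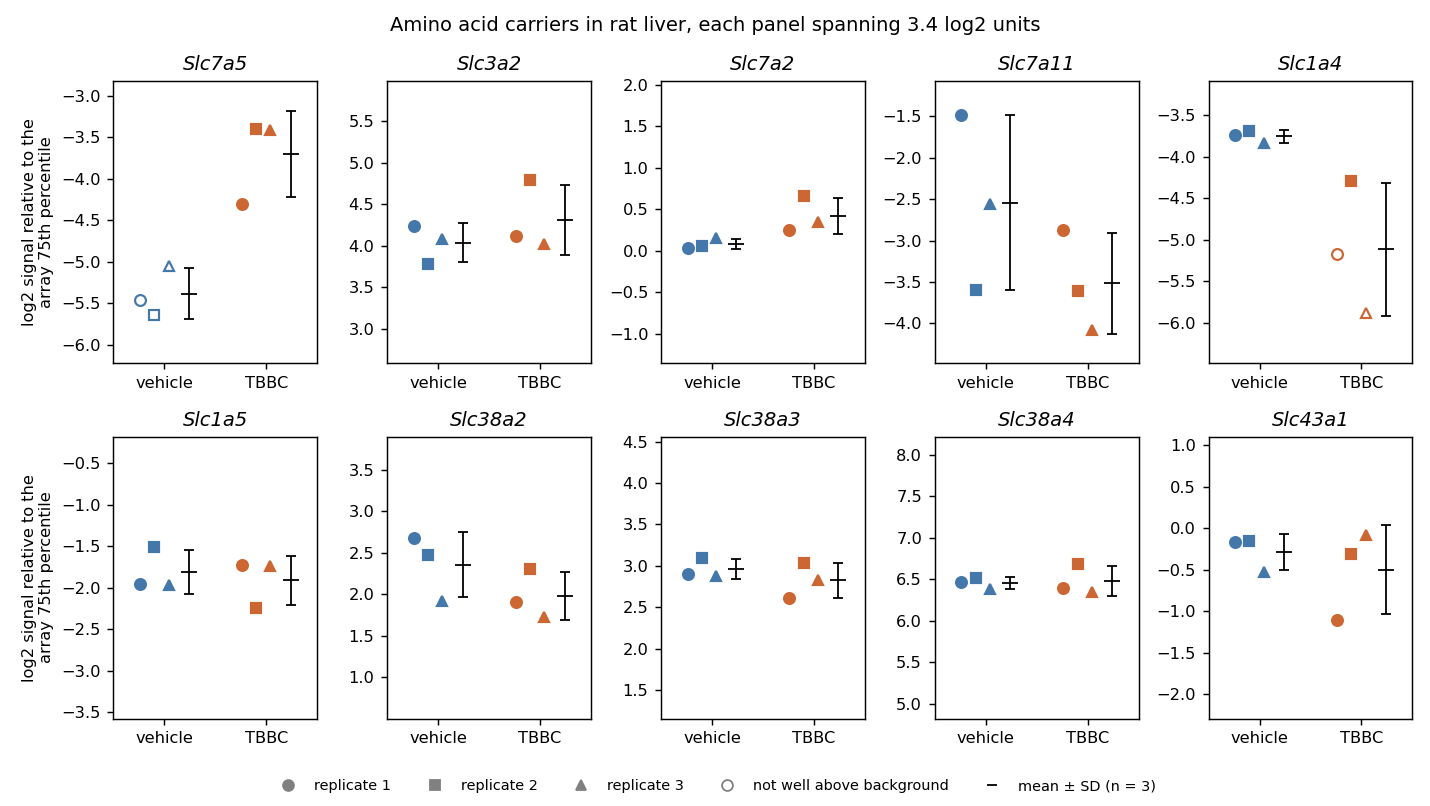
Log2 signal of each carrier relative to the array's 75th percentile (y axis) in the vehicle and TBBC animals (x axis), 1 point per animal, with open points for spots not well above background and bars for the mean ± SD of 3 animals. The Slc7a5 points are open in all 3 vehicle animals and filled in all 3 TBBC animals, and the Slc1a4 points are filled in 3 vehicle animals and 1 TBBC animal.

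The promoters of Slc7a5 and Slc1a4 are shown because each was well above background in all animals of 1 group and not in most or all of the other, in opposite directions. Each runs from 250 bases before to 50 bases after the gene's start, 5′ to 3′ on the gene's strand, from RefSeq on GRCr8. The Slc7a5 promoter is at chr19:66872363-66872662 and the Slc1a4 promoter at chr14:98761513-98761812, both on the minus strand. Capitals mark the letters of the E-box CACGTG, which MYC binds among other factors, and, in Slc1a4, of the composite element TGATGNAA of ATF4 and C/EBP, read on the opposite strand as TTNCATCA.
Slc7a5: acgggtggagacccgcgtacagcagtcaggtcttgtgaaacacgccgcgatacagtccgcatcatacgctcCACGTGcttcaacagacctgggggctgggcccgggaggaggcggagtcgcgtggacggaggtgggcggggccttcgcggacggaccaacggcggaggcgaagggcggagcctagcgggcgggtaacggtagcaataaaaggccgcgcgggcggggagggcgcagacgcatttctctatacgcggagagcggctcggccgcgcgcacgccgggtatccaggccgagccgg
Slc1a4: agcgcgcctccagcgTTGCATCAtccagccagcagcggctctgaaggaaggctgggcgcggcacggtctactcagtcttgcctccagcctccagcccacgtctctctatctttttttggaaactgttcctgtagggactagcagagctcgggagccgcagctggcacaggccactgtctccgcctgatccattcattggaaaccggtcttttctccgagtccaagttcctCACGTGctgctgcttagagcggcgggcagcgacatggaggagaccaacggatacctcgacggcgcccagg

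The CACGTG letters started 179 bases before the start of Slc7a5 and 20 bases before that of Slc1a4. They were also in the promoter of Slc43a1, which gives 3 of the 7 carriers with a promoter in the table, beside 6.42% of all 33469 promoters of the same length. In this paragraph the carriers are counted as genes and the shares are of promoters, and Slc3a2 has more than 1 promoter. CACGTG reads the same on both strands. TGATGNAA or TTNCATCA was in 1 of the 7, Slc1a4, where it started 235 bases before the start, and in 3.98% of all promoters. The element TGACNNNGC of the antioxidant factor NRF2, on either strand, was in 2 of the 7, Slc3a2 and Slc38a2, and in 12.1% of all promoters. None of these matches overlapped another. A match in these windows describes the letters and does not show that a factor binds there.

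Slc7a5 encodes the light chain LAT1. Its probe, A_44_P380575 (NM_017353), had a processed signal of 13.1, 9.30 and 18.1 in vehicle replicates 1 to 3 and of 31.2, 59.5 and 60.3 in TBBC replicates 1 to 3. All 3 TBBC values lay above all 3 vehicle values, and TBBC replicate 1 was the lowest of its group. None of the vehicle spots and all of the TBBC spots were well above background. Before any background subtraction, the median pixel of the spot was 51, 49.5 and 58 in the vehicle animals, against 51, 54 and 53 in the pixels around it. In the TBBC animals the spot had 71, 102 and 103.5, against 50, 49 and 53 around it. The vehicle spots were thus about as bright as their surroundings, and the TBBC spots were brighter than theirs.

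On the log2 scale Slc7a5 stood at -5.39 ± 0.31 in vehicle and -3.70 ± 0.52 in TBBC animals (SD, n = 3 each). Because the vehicle spots were not well above background, the fold was taken against a floor. Slc7a5 was 2.45-fold higher with TBBC than this floor, or 1.29 on the log2 scale. The floor is, on each vehicle array, the higher of the probe's own signal and the dimmest probe that was well above background. It gives no strict lower bound, since a spot can lie above it without being well above background, as Slc1a4 did on TBBC replicate 1. A smaller difference came with normexp, given below. With each array left out in turn the fold against the floor stayed between 2.20 and 3.02. In the fit the measured values differed by 1.68 ± 0.29 (SE, adjusted p = 0.0379), which belongs to the dim vehicle values and not to the floor. That call did not hold when any array except TBBC replicate 1 was left out: without vehicle replicates 1, 2 and 3 the adjusted p was 0.121, 0.111 and 0.0705, and without TBBC replicates 2 and 3 it was 0.124 and 0.109. Without TBBC replicate 1 it was 0.0252. The call was also lost with normexp, which corrects the background of the unprocessed spot signals with an added offset (difference 0.41, adjusted p = 0.0995), with no filter on dim probes (adjusted p = 0.0897) and with the replicate number as a block (adjusted p = 0.0694). Where a probe had to be above background on each of the 6 arrays Slc7a5 was not tested.

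**Figure D2:**
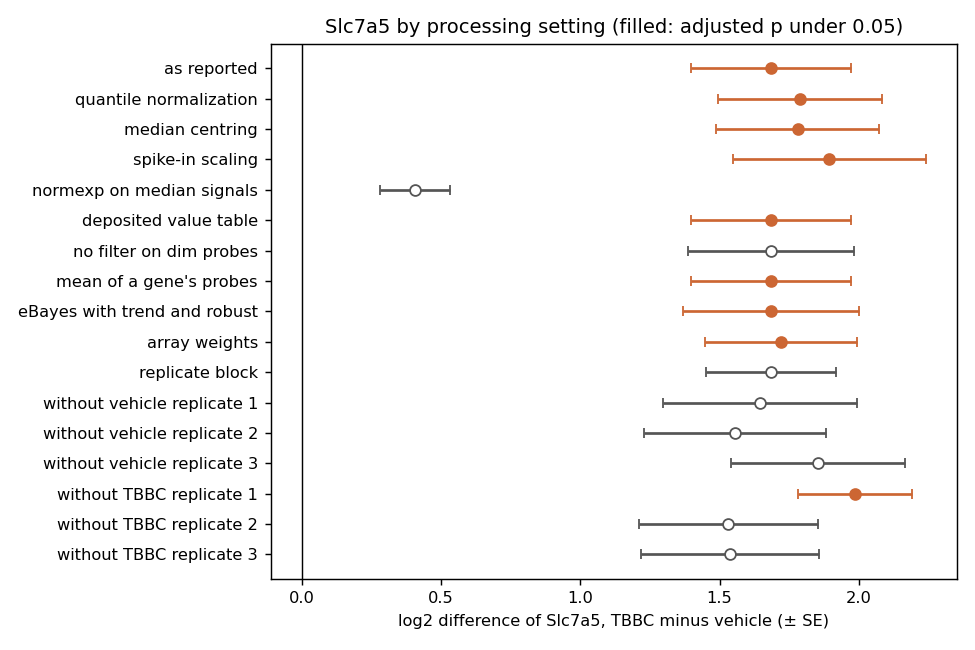
Log2 difference of Slc7a5, TBBC minus vehicle, with its standard error (x axis) under the reported processing and each alternative in which it could be tested (y axis); filled points have an adjusted p under 0.05. All differences are positive, from 0.41 with normexp to 1.99 without TBBC replicate 1, and the call was lost in 8 of 16 alternatives.

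In whole liver, more RNA per cell and more cells of a kind that expresses a gene cannot be told apart. Activated immune cells and dividing cells are known to carry LAT1, so markers of other cells of the liver were read on the same arrays. The 11 Kupffer cell and myeloid markers were all well above background on 6 arrays, 0 of them passed, and their summed signal was 70.9 to 131 times the 75th percentile in vehicle and 79.2 to 144 in TBBC animals. Of 13 T, B and NK cell markers 8 were tested and 0 passed, with 7 of the 8 differences negative and a median of -0.38. Their summed signal was 3.17 to 3.54 in vehicle and 2.07 to 3.05 in TBBC animals, and Cd3e, Cd2 and Cd5 stood well above background on none of the 6 arrays. Of 6 biliary markers 5 were tested and 1 rose, beside 1.68% of all features. It was Epcam (named after its value was seen), by 1.83 ± 0.21. The other 4 did not pass and overlapped between the groups, with differences of -0.33 for Krt7, 0.25 for Spp1, 0.44 for Krt19 and 1.16 for Cftr. The summed signal of the list was 1.13 to 1.30 in vehicle and 2.77 to 4.15 in TBBC animals, most of it from Epcam. Of 6 markers of dividing cells 4 were tested and 0 passed, with summed signals of 1.22 to 1.97 and 1.05 to 1.69. Of the 7 stellate and matrix markers tested 0 passed, with summed signals of 23.2 to 33.4 and 23.5 to 31.0, and Lum stood well above background on none of the 6 arrays. Of the 5 endothelial markers tested 0 passed, with summed signals of 26.1 to 46.1 and 32.8 to 38.0. Epcam was the marker of these lists that passed the test, and its part in the Slc7a5 result was not tested.

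Slc3a2 encodes 4F2hc, the heavy chain that brings LAT1 and xCT to the cell surface. Its level was 4.24, 3.78 and 4.09 in vehicle replicates 1 to 3 and 4.11, 4.79 and 4.02 in TBBC replicates 1 to 3. The groups overlapped, and TBBC replicate 2 was alone above the vehicle animals. The difference was 0.27 ± 0.24 (adjusted p = 0.516), with a 95% interval from -0.29 to 0.84. Without TBBC replicate 2 it was 0.03. Within each array, the log2 ratio of Slc7a5 to Slc3a2 was higher with TBBC by 1.02 with the dim vehicle spots of Slc7a5 raised to the same floor as above. The groups did not overlap there. The measured values, dim spots included, differed by 1.41. Slc7a5 was kept only through the group in which it was high, so the tests of its ratios, here and below, are descriptions. Its ratios to different carriers also share the same Slc7a5 values. The exact permutation test on the measured values of the ratio to Slc3a2 gave p = 0.1, the smallest that 3 against 3 animals allow (two-sided, adjusted p = 0.229 over 8 pairs of carriers). With normexp this difference of ratios was 0.02 (exact permutation p = 1).

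Slc7a11 encodes the light chain xCT, which brings in cystine for glutathione synthesis, and is a known target of NRF2 and ATF4. Only 1 of its 3 probes, A_42_P576446, was well above background, on all 6 arrays; the other 2 never reached that level. The level of that probe was -1.48, -3.59 and -2.56 in the vehicle animals and -2.87, -3.61 and -4.07 in the TBBC animals. The groups overlapped, and vehicle replicate 1 stood highest. The difference was -0.97 ± 0.56 (adjusted p = 0.335), with a 95% interval from -2.30 to 0.36. Its spread within groups, a pooled SD of 0.86, was wider than that of 98.0% of all features. Without vehicle replicate 1 the difference was -0.44. The log2 ratio of Slc7a5 to Slc7a11 was higher with TBBC by 2.27 with the vehicle spots of Slc7a5 at their floor, where the groups overlapped. Over the alternatives that kept all arrays, the lowest difference of this ratio was 1.02. The measured values differed by 2.66 without overlap (exact permutation p = 0.1, adjusted p = 0.229).

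Slc43a1 encodes LAT3, a carrier of leucine and other neutral amino acids that needs no heavy chain. It stood at -0.16, -0.15 and -0.53 in the vehicle animals and at -1.11, -0.31 and -0.08 in the TBBC animals. The TBBC animals spanned the whole range of the vehicle animals. The difference was -0.22 ± 0.28 (adjusted p = 0.659), with a 95% interval from -0.88 to 0.45, and it was 0.09 without TBBC replicate 1. The log2 ratio of Slc7a5 to Slc43a1, both carriers of leucine, was higher with TBBC by 1.51 with the vehicle spots of Slc7a5 at their floor. The groups did not overlap there. Over the alternatives that kept all arrays, the lowest difference of this ratio was 0.69. The measured values differed by 1.90 (exact permutation p = 0.1, adjusted p = 0.229).

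**Figure D3:**
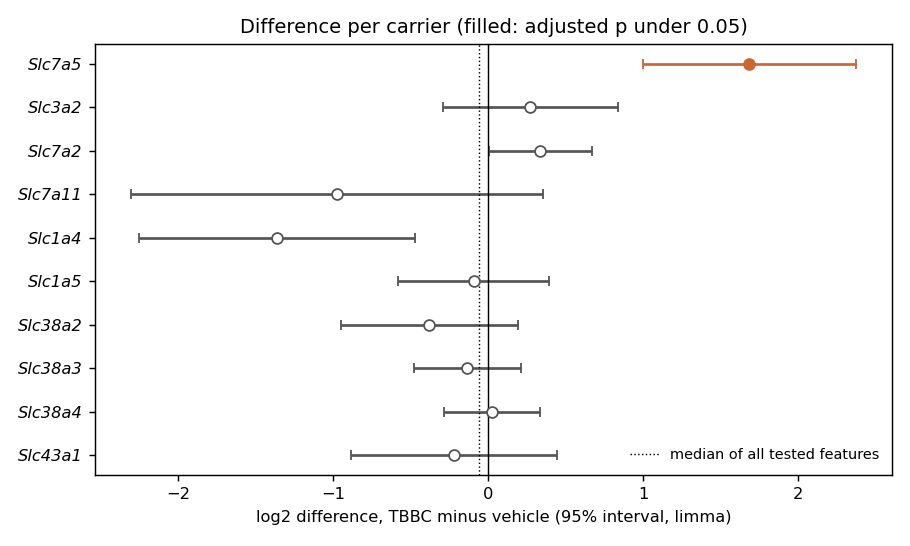
Log2 difference, TBBC minus vehicle, of each carrier with its 95% interval from limma (x axis), the carriers on the y axis; the filled point passed an adjusted p under 0.05 and the dotted line is the median of all features, -0.06. The interval of Slc7a5, whose vehicle spots were not well above background, runs from 1.00 to 2.37 and that of Slc38a4 from -0.29 to 0.33.

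Slc1a4 encodes ASCT1, an exchanger of alanine, serine and cysteine. Its single probe gave -3.74, -3.69 and -3.84 in vehicle replicates 1 to 3 and -5.17, -4.29 and -5.88 in TBBC replicates 1 to 3. All TBBC animals lay below all vehicle animals, and the vehicle animals lay within 0.15 of each other. The probe was well above background in 3 vehicle animals but in 1 TBBC animal, replicate 2. The TBBC mean therefore rests in part on spots that were not measured above background. With each TBBC spot raised to at least the dimmest probe well above background on its array, the difference was -1.03. The fit on the measured values gave -1.36 ± 0.37 (adjusted p = 0.106, unadjusted p = 0.00893), with a 95% interval from -2.25 to -0.47, and its adjusted p stayed between 0.0655 and 0.226 over the 16 alternatives that could test it. The difference was -0.52 with normexp.

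Slc1a5 encodes ASCT2, the sodium-dependent glutamine exchanger. The probe used for it gave -1.96, -1.51 and -1.97 in the vehicle animals and -1.73, -2.25 and -1.74 in the TBBC animals, and the groups overlapped. The difference was -0.09 ± 0.20 (adjusted p = 0.804), with a 95% interval from -0.58 to 0.39, and its sign turned with median centring and with scaling on spike-in controls. The second probe gave -0.25 ± 0.16 (adjusted p = 0.362 with every probe tested on its own). With each probe on its own, 1 of the 14 probes of the carriers passed, that of Slc7a5, beside 3.22% of all 37222 probes, 1.78% as higher and 1.43% as lower. The log2 ratio of Slc1a4 to Slc1a5 differed by -0.93 with the TBBC spots of Slc1a4 raised in the way given above, and by -1.27 as measured. The groups overlapped in both (exact permutation on the measured values p = 0.2, adjusted p = 0.229).

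The Slc38 carriers bring in small neutral amino acids together with sodium. Slc38a2 encodes SNAT2, a system A carrier that cells raise when amino acids run short. The probe used for it gave 2.67, 2.48 and 1.92 in the vehicle animals and 1.91, 2.30 and 1.73 in the TBBC animals. The difference was -0.38 ± 0.24 (adjusted p = 0.378), with a 95% interval from -0.95 to 0.19. The second probe of Slc38a2 gave a difference of the other sign, 0.04 ± 0.19 (adjusted p = 0.908 with every probe tested on its own).

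Slc38a3 encodes SNAT3, the system N carrier of glutamine, histidine and asparagine. It stood at 2.91, 3.10 and 2.88 in the vehicle animals and at 2.62, 3.04 and 2.83 in the TBBC animals. The difference was -0.13 ± 0.14 (adjusted p = 0.601), with a 95% interval from -0.48 to 0.21, which as a fold is 0.717 to 1.16. The sign turned with scaling on spike-in controls (0.08) and with normexp (0.0034).

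Slc38a4 encodes SNAT4, a system A carrier known for its high level in liver. It gave 6.46, 6.52 and 6.38 in the vehicle animals and 6.40, 6.69 and 6.35 in the TBBC animals. The difference was 0.02 ± 0.13 (adjusted p = 0.925), with a 95% interval as a fold of 0.820 to 1.26. The sign turned without vehicle replicate 3 or TBBC replicate 2. Within the family, the ratios of Slc38a2 to Slc38a3, of Slc38a2 to Slc38a4 and of Slc38a3 to Slc38a4 differed between the groups by -0.24, -0.40 and -0.16. These groups overlapped in all 3 ratios, and the exact permutation p was 0.4, 0.2 and 0.2 (adjusted p = 0.4, 0.229 and 0.229).

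Slc7a2 encodes CAT-2, the carrier of arginine, lysine and ornithine that serves the urea cycle of hepatocytes. Its 3 probes disagreed. The probe with the highest mean, A_64_P065736 (NM_001134686), gave 0.03, 0.06 and 0.15 in the vehicle animals and 0.24, 0.66 and 0.35 in the TBBC animals. These groups did not overlap, and the difference was 0.34 ± 0.14 (adjusted p = 0.214, unadjusted p = 0.0483). Probe A_44_P313679, which has the same accession, gave 0.78, -0.79 and 0.26 in the vehicle animals and -0.42, 1.14 and -0.49 in the TBBC animals, a difference of -0.0019 ± 0.56. Probe A_44_P313684 (NM_022619) gave 0.13, -0.95 and -0.22 and then -0.61, 0.35 and -0.48, a difference of 0.10 ± 0.35. Over the 6 animals the last-named probes spanned 3.83-fold and 2.47-fold, and the first 1.55-fold. On both wide-ranging probes vehicle replicate 2 was the lowest and TBBC replicate 2 the highest of all animals. With the mean of its 3 probes, Slc7a2 differed by 0.15 (adjusted p = 0.819).

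**Figure D4:**
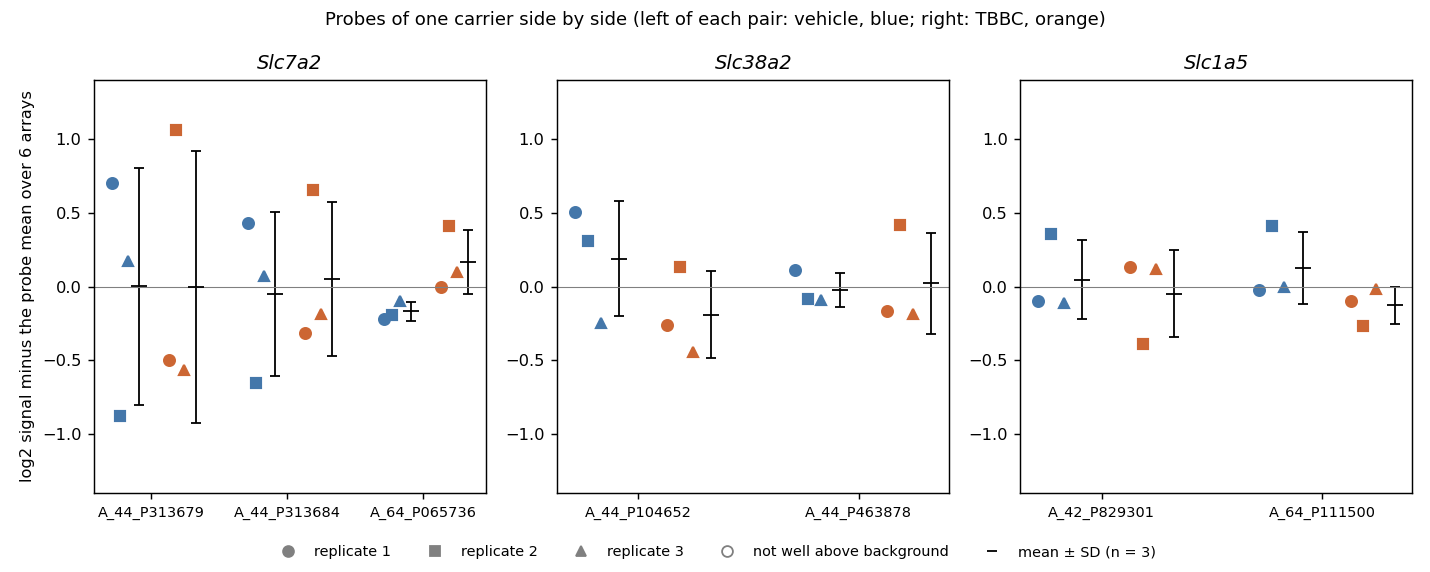
Log2 signal minus each probe's mean over the 6 arrays (y axis) for the probes of Slc7a2, Slc38a2 and Slc1a5 (x axis), vehicle animals in blue and TBBC animals in orange, bars for the mean ± SD of 3 animals. The first and second probes of Slc7a2 range over 3.83-fold and 2.47-fold between animals, and the third over 1.55-fold.

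The animals of a group also differed among themselves. TBBC replicate 2 had the highest value of its group for 7 of the 10 carriers, beside 38.5% of all features, and the lowest for 1. The exceptions were Slc7a11, Slc1a5 and Slc43a1. Vehicle replicate 3 had the lowest value of its group for 6 of the 10, beside 40.9% of all features. The median pooled SD was 0.34 for the 10 carriers and 0.20 for all features.

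Other amino acid carriers of the plasma membrane showed no call. Of the 32 listed, 29 had a named probe and 19 were tested, of which 0 rose and 0 fell by limma. At an unadjusted p under 0.05 there were 5. Such counts, here and below, are descriptions, as no share of all features is given at that cut. The median difference of the 19 was -0.15. The brightest, the GABA and taurine carrier Slc6a13 and the betaine carrier Slc6a12, differed by -0.02 ± 0.15 and -0.30 ± 0.17. A pair of others was picked out after the values were seen because some alternatives called them. Slc1a2, the glutamate carrier GLT-1, gave -0.55, 0.13 and -1.23 in the vehicle animals and 0.87, 1.51 and 0.54 in the TBBC animals. These groups did not overlap, and 12.3% of all features lay higher without overlap. The difference of Slc1a2 was 1.52 ± 0.39 (adjusted p = 0.0926), and it passed with spike-in scaling (adjusted p = 0.0335) and with the replicate number as a block (adjusted p = 0.0367). Slc7a7, the light chain y+LAT1, which also pairs with 4F2hc, gave -3.04, -3.60 and -2.69 in the vehicle animals and -4.39, -4.26 and -3.97 in the TBBC animals. Its difference was -1.10 ± 0.25 (adjusted p = 0.0705), and it passed with normexp (adjusted p = 0.0181) and with array weights (adjusted p = 0.0395). Of 13 carriers of mitochondria and lysosomes, 7 were tested and 0 passed, with 3 at an unadjusted p under 0.05 and a median of -0.22. The brightest were the glutamate carrier Slc25a22, at -0.30 ± 0.18, and the ornithine carrier Slc25a15, at 0.51 ± 0.19, whose second probe gave -0.38.

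Genes that surround the carriers in amino acid supply were read from the same fit. Of 25 genes of the amino acid stress response under ATF4, 23 were tested, 0 rose, 5 fell and 18 did not pass. Over all features 1.68% rose and 1.4% fell. The median of the list was -0.57, beside -0.06 for all features. Phgdh, the first enzyme of serine synthesis, fell by 2.48 ± 0.26 on the log2 scale, the transcription factor Atf5 by 1.69 ± 0.16, the asparagine synthetase Asns by 1.65 ± 0.24 and the stress cofactor Nupr1 by 1.47 ± 0.22. The fifth, named here after its value was seen, was Aldh1l2, a mitochondrial folate enzyme, at -0.87 ± 0.16. Without TBBC replicate 2 none of the 23 passed, and without the other arrays in turn 1 to 3 did. Slc7a5, Slc3a2, Slc7a11, Slc1a4, Slc1a5 and Slc38a2 are known ATF4 targets too: of these 6 carriers Slc7a5 rose and the other 5 did not pass, with differences from -1.36 to 0.27. Of 12 NRF2 targets, a class to which Slc7a11 belongs, 11 were tested and 0 passed by limma (7 at an unadjusted p under 0.05), with a median of 0.51 and 8 of 11 differences positive. The 2 with the highest mean signal were of the other sign: Gclc, a subunit of the enzyme that makes the glutathione precursor, at -0.63 ± 0.27, and the malic enzyme Me1 at -0.39 ± 0.12. The other 2 probes of Me1 gave 0.12 and 0.08, and the mean of its probes -0.064. Named after the values were seen, the glutathione peroxidase Gpx2 differed by 5.45 ± 1.18 (adjusted p = 0.0658), the quinone reductase Nqo1 by 2.57 ± 0.72 (adjusted p = 0.113), the peroxiredoxin repair enzyme Srxn1 by 0.95 ± 0.19 (adjusted p = 0.0524) and the heme oxygenase Hmox1 by 0.95 ± 0.25 (adjusted p = 0.101). In these 4 genes the TBBC animals lay above the vehicle animals without overlap, as they did in Gsr and Abcc4 of the same list. On the probe used for Me1 they lay below the vehicle animals without overlap. Over all features 12.3% lay higher and 18.8% lower without overlap. Srxn1 passed in 6 and Gpx2 in 4 of 18 settings.

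**Figure D5:**
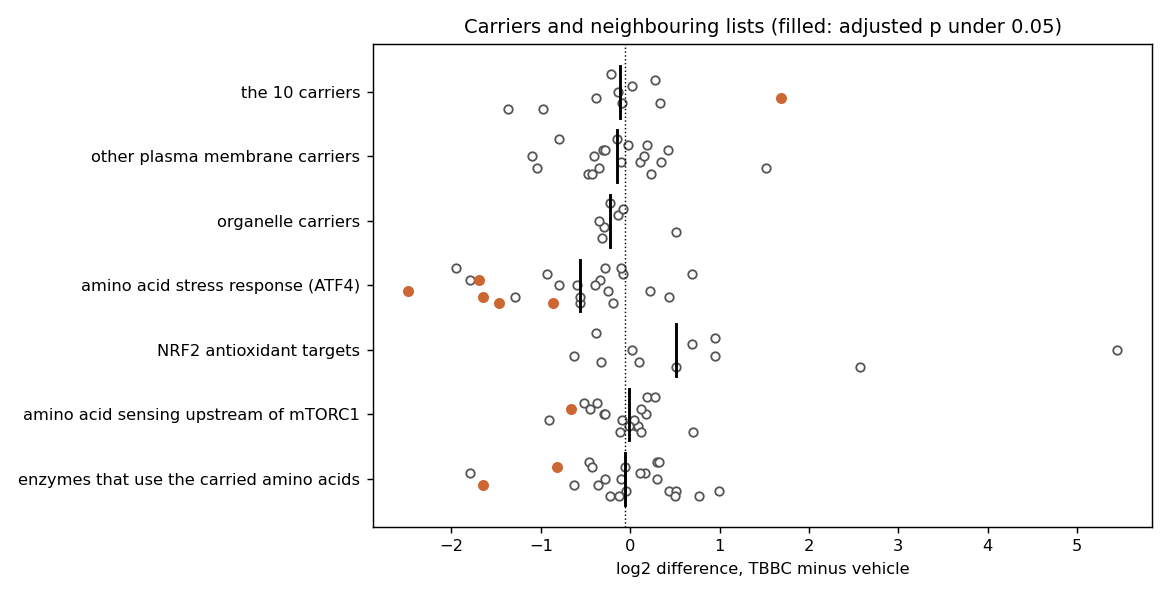
Log2 difference, TBBC minus vehicle (x axis), of each tested gene in the 10 carriers and in 6 lists (y axis), with black bars for the list medians, filled points for an adjusted p under 0.05 and a dotted line at the median of all features. The 5 filled points of the ATF4 list lie between -2.48 and -0.87, and the filled carrier is Slc7a5 at 1.68.

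Of 22 genes that sense amino acids upstream of mTORC1, 19 were tested, with a median of -0.02. Of the 19, 0 rose and 1 fell, beside 1.68% and 1.4% of all features. The gene that fell was Fnip1, a partner of folliculin, by 0.66 ± 0.12 on the log2 scale, while its other 2 probes gave 0.02 and -0.22. The call was lost in 11 of 17 alternatives, such as averaging its 3 probes or leaving out each of the 6 arrays. Of 27 enzymes that use the carried amino acids, 23 were tested, with a median of -0.05. Of the 23, 0 rose and 2 fell, beside the same shares of all features. The 2 were Asns, which also stands in the ATF4 list, and the glutamine synthetase Glul, which fell by 0.82 ± 0.14 on the log2 scale. The 2 probes of Glul gave -0.82 and -0.79. The call of Glul was lost in 9 of 17 alternatives, among them each array left out in turn. Without TBBC replicate 1 Asns alone of the 23 passed, and without any other single array 0 did.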

How the data were processed

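Liver RNA of 6 rats was labelled with Cy3 and hybridised to Agilent arrays of 62976 spots, 1439 of them controls. The deposited scanner files hold the processed intensity of each spot, which the authors made with Agilent Feature Extraction 10.7.1.1, per the file headers (10.7 per the submitters' processing notes); the design build is rn4. The deposited value table holds these intensities divided by 1 constant per array, within 0.014%, with column medians of 0.1013, 0.1077 and 0.1033 (vehicle) and 0.0977, 0.0972 and 0.0974 (TBBC); its scale is linear and its genes are not centred, and the origin of the constant is not given in the sources used here. Flags for background, saturation and outliers are the authors' deposited columns, and 25 probes with an outlier flag were left out.

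The log2 of the deposited intensity was taken minus each array's 75th percentile. A probe was kept if it was well above background on every array of at least 1 group, a gene was its probe with the highest mean, and unnamed probes stood alone. Of the probes, 28193 (45.8%) were named through RefSeq accessions; promoters come from RefSeq on GRCr8, whose gene positions were not used for the rn4 array. The TBBC and vehicle arrays were fitted in limma 3.58.1, R 4.3.3 (two-sided, Benjamini-Hochberg adjusted, threshold 0.05). In simulated data of 29332 features this fit recovered 78% of changes of 2 and 35% of changes of 1 on the log2 scale. The simulation drew independent normal noise and changed fewer features than the 902 called here, so these shares need not hold for these arrays. Pairs of carriers were compared by exact permutation over 20 splits. Correlations between arrays were 0.986 to 0.991 within groups and 0.975 to 0.984 between groups.

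The 10 carriers and all lists were chosen with earlier results of these data known. Named are all carriers with each probe; of each other list, up to 4 genes past the threshold by size (up to 8 for other plasma membrane carriers), or up to 2 with the highest mean signal where none passed; and cell type lists by counts and summed signal. Alternatives were quantile normalization, median centring, spike-in scaling, normexp on median signals (offset 50), the deposited value table, 2 other filters, the mean of a gene's probes, trend and robust variance, a block for the replicate number, array weights and each array left out.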

Additional observations from a re-analysis of the deposited data

How the results depend on the processing

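The number of features that changed, 902, was 1589 with normexp, 194 with no filter on dim probes and 208 with the replicate number as a block, and 104 to 365 with 1 array left out. The count of carriers that changed, by gene or by single probe, went from 1 to 0 with normexp, no filter, a filter asking for signal above background on each of the 6 arrays, and the replicate block, and was 0 to 1 with 1 array left out. The Slc7a5 difference was 0.41 with normexp and 1.68 with no filter and with the block, all no longer past the threshold, and 1.53 to 1.99 with 1 array left out; the cause was not tested. None of the other 9 carriers passed in any alternative. The replicate numbers gave no pairing: deviations of arrays with the same number correlated at 0.0035, -0.02 and 0.14, so the block only shows how it moves the counts.

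Among the lists, other plasma membrane carriers had 1 call with spike-in scaling, normexp, array weights and the block (0 with 1 array left out). The ATF4 list had 2 with no filter, 8 with array weights and 0 to 3 with 1 array left out. The NRF2 list had 2 with median centring, spike-in scaling and array weights, 3 with normexp, 1 with the all-6-array filter, the mean of probes and trend and robust variance, and 0 to 1 with 1 array left out. The mTORC1 list had 0 with median centring, spike-in scaling, no filter, the mean of probes, the block and 1 array left out, and 2 with normexp. The enzyme list had 1 with spike-in scaling and the block, 4 with normexp, 0 with no filter, and 0 to 1 with 1 array left out. With array weights its gene Psat1 passed beside Asns and Glul (limma adjusted p = 0.0498 for Psat1). Ratios of carriers without overlap numbered 3, all with Slc7a5. Over the alternatives that kept all arrays the count was 0 to 4, with 0 of the testable pairs under the all-6-array filter. With quantile normalization the ratio of Slc38a3 to Slc38a4 also did not overlap (exact permutation p = 0.1). With normexp the ratio of Slc7a5 to Slc3a2 overlapped. With 1 array left out the count was 4 to 5. With fewer arrays in a group, overlap is less likely whatever the values, so the last count adds nothing to the first. With dim spots of Slc7a5 and Slc1a4 raised to a floor, a setting chosen after seeing the data, the ratio of Slc7a5 to Slc7a11 overlapped too.

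Differences that turned sign were all small. Slc1a5 was 0.0012 with median centring, 0.12 with spike-in scaling and -0.18 to 0.076 with 1 array left out. Without vehicle replicate 2 it was 0.059. Slc38a3 was 0.076 with spike-in scaling and 0.0034 with normexp. Slc38a4 ran from -0.081 to 0.089 with 1 array left out, -0.011 without vehicle replicate 3, and Slc43a1 from -0.43 to 0.086. Slc6a13 was 0.072 with median centring, 0.19 with spike-in scaling and -0.12 to 0.089 with 1 array left out, with 0.0016 without vehicle replicate 1 and 0.034 without vehicle replicate 2. Signal over background limits Slc7a5 in vehicle animals and Slc1a4 in TBBC animals.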
